A study of Saccharomyces cerevisiae with 4 samples.

Results

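The alcohol and butanediol dehydrogenases of budding yeast (Saccharomyces cerevisiae) are the enzymes that interconvert alcohols and aldehydes or ketones with NAD(H) or NADP(H). The set described here has 10 genes, ADH1 to ADH7, SFA1, BDH1 and BDH2, taken by gene symbol from the platform annotation of the array, out of 5449 S. cerevisiae genes measured. Each of the 10 genes had 1 probe set, and none was marked on the array as shared with other transcripts. Transcript levels came from cultures of the wild type strain W1588-4c in YPD, a rich medium with glucose, at log phase (OD600 of 0.6 to 0.8). One group received ebselen at 100 µM for 3 h (2 arrays) and the other received DMSO, the solvent of the drug (2 arrays). Ebselen is an organoselenium compound that reacts with thiols. The labels call the arrays of a group biological replicates, name no culture, and give an exposure time for ebselen alone. Every direction below rests on the deposited labels.

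In yeast growing on glucose, pyruvate is decarboxylated to acetaldehyde, which alcohol dehydrogenase reduces to ethanol while NADH is oxidized back to NAD+. ADH1 encodes the main cytosolic enzyme of that step, whereas ADH2, which glucose represses and the activators Adr1 and Cat8 induce, encodes the enzyme known for using ethanol once glucose is gone. Among the other members are enzymes that act on longer, branched or aromatic alcohols, on the adduct of formaldehyde with glutathione, or on acetoin and 2,3-butanediol. Most belong to the zinc-binding medium-chain dehydrogenase/reductase superfamily, while ADH4 belongs to a separate, unrelated family.

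Values are log2 expression relative to the gene's own median over the 4 arrays, so a level cannot be set against that of another gene, and only changes can. By that centring, the middle pair of a gene's 4 values always mirror each other around 0. A change is the mean of the ebselen arrays minus that of the DMSO arrays, given with limma's moderated standard error (SE, n = 2 arrays per group), which borrows spread from all genes. Adjusted p values are limma's after Benjamini-Hochberg correction over all 5449 genes, with 0.05 as the threshold, and rose and fell are used of genes past it. In these bulk cultures, fewer cells expressing a gene and less RNA per cell cannot be told apart.

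In the arrays labelled ebselen 8 of the 10 members fell and 0 rose in limma. All 10 changes were below 0, so 0 members could be higher without adjustment, at a p under 0.05, or in the methods' t-test. Over all genes tested, 38.8% fell and 33.0% rose by the same rule. Both ebselen arrays lay below both DMSO arrays for 9 of the 10 members, against 46.1% of all genes. The median change of the members was −0.64, and that of all genes was −0.03. Per array, the median over the members was −0.35 and −0.32 with ebselen, against 0.34 and 0.33 with DMSO. Within the family the changes ran from −3.38 for BDH2 to −0.05 for ADH7, so the genes moved by very unequal amounts.

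**Figure D1:**
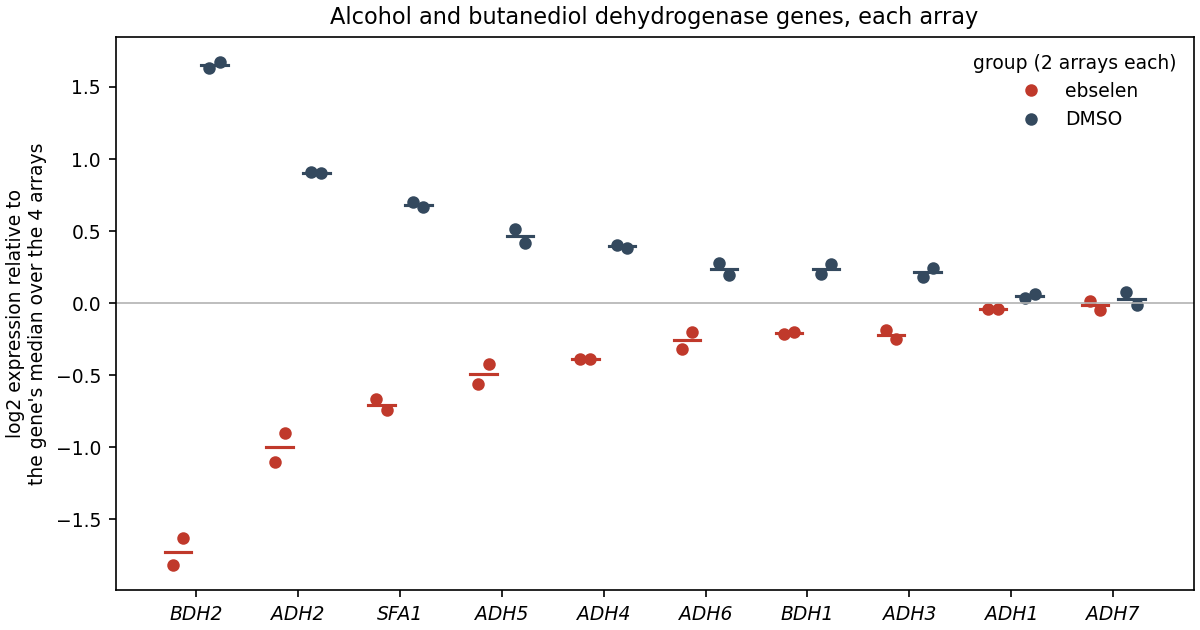
Log2 expression of each member relative to its own median (vertical axis) on the 2 ebselen and the 2 DMSO arrays; points are arrays and short lines are group means. The groups stand far apart for BDH2 at the left (change −3.38), draw together towards ADH1, and overlap for ADH7 at the right.

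Arrays of one group differed little: over all genes, the array-to-array difference had an SD of 0.143 within ebselen and 0.116 within DMSO, against 0.726 to 0.731 between groups. Probe sets of this array type that are designed for another species, fission yeast (S. pombe), should find little target here. Of these 1747 probe sets, 99% changed by less than 0.60 in either direction, and 5 members (BDH2, ADH2, SFA1, ADH5 and ADH4) changed by more. Of these 5 members ADH4 fell least, and 11.7% of all genes had a lower change than ADH4. The share of all S. cerevisiae genes past 0.60 in either direction was not counted, so the 5 are not read as a trait of the family. For the 8 yeast control transcripts probed at both ends, signal at the 5′ end relative to the 3′ end was lower with ebselen (change −0.75 ± 0.26, SD over 8 transcripts). All 8 were negative, and the part of this difference in the changes of the dehydrogenase genes was not tested. Scaling the arrays on their hybridization controls, which are foreign transcripts put into the hybridization mix, moved the median change of all genes to −0.39. The offset taken off was 0.35, a mean over 27 control probe sets whose own changes ran from −0.05 to 0.67. With the 9 whose names carry r2 alone, a choice made after seeing the data, the offset was 0.34. The median change of all genes was then −0.37. On all 27 controls, rises made up 16.9% of the calls, against 45.9% as deposited, so every direction given here is relative to the scaling of the deposited values.

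The ethanol-forming enzyme and its close relatives were the first group examined. ADH1 (YOL086C) had values of −0.040 and −0.039 with ebselen, against 0.039 and 0.067 with DMSO. Both ebselen arrays were thus below both DMSO arrays, but by little. The change of −0.09 ± 0.050 did not pass the test (adjusted p = 0.153), with a 95% interval from −0.22 to 0.04. ADH1 had an absolute change larger than only 14.2% of all genes. It passed as lower with arrays centred on the S. pombe probe sets (−0.16) or scaled on the hybridization controls (−0.45), and in the methods' t-test. After removal of the trend with coding length its change was 0.11, and that did not pass.

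ADH5 (YBR145W), a further cytosolic isoenzyme with activity in ethanol formation, had values of −0.56 and −0.42 with ebselen, against 0.51 and 0.42 with DMSO. It fell 1.94-fold (−0.95 ± 0.072, adjusted p = 0.000231), and the groups did not overlap. ADH3 (YMR083W), the mitochondrial isoenzyme, which takes part in a shuttle of ethanol and acetaldehyde across the inner membrane, had values of −0.18 and −0.25 with ebselen, against 0.18 and 0.25 with DMSO. It fell 1.35-fold (−0.43 ± 0.057, adjusted p = 0.0015), and 24.7% of all genes had a lower change. ADH4 (YGL256W), the member of the unrelated family, had −0.384 and −0.387 with ebselen, against 0.40 and 0.38 with DMSO. It fell 1.72-fold (−0.78 ± 0.050, adjusted p = 0.000138), with replicates of each group nearly equal.

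ADH2 (YMR303C), the glucose-repressed enzyme of ethanol use, had the second largest fall of the family. Its values were −1.10 and −0.90 with ebselen, against 0.91 and 0.90 with DMSO. The fall was 3.75-fold (−1.91 ± 0.079, 95% interval −2.11 to −1.71, adjusted p = 4.77e-05), and only 1.87% of all genes had a lower change. The spread between the ebselen arrays (SD 0.14) was the widest of any member in that group and was still far below the gap between groups.

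ADH6 (YMR318C) and ADH7 (YCR105W) encode related NADPH-dependent enzymes that reduce cinnamaldehyde and many other aldehydes. ADH6 had values of −0.32 and −0.20 with ebselen, against 0.28 and 0.20 with DMSO, and fell 1.41-fold (−0.49 ± 0.067, adjusted p = 0.00168). ADH7 had 0.014 and −0.045 with ebselen, against 0.075 and −0.014 with DMSO. It was the one member whose groups overlapped. Its change of −0.05 ± 0.060 did not pass (adjusted p = 0.520, 95% interval −0.20 to 0.11). On hybridization-control scaling it passed as lower (−0.40), and after removal of the trend with coding length its change was 0.16, which did not pass. The median change of all genes on hybridization-control scaling was −0.39, and 3177 of 5449 genes fell.

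SFA1 (YDL168W) encodes the bifunctional enzyme that oxidizes the formaldehyde adduct of glutathione and also acts on long-chain alcohols. It had values of −0.66 and −0.74 with ebselen, against 0.70 and 0.66 with DMSO. It fell 2.62-fold (−1.39 ± 0.057, 95% interval −1.53 to −1.24, adjusted p = 4.77e-05), and 4.09% of all genes had a lower change. The genes listed for the following steps fell less: YJL068C, the S-formylglutathione hydrolase, by 1.44-fold (−0.53 ± 0.054) and FDH1, formate dehydrogenase, by 1.21-fold (−0.27 ± 0.082), with limma adjusted p values of 0.000604 and 0.0302. FDH1 no longer passed when the trend with coding length was removed, where its change was −0.07.

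BDH1 (YAL060W) encodes the butanediol dehydrogenase that interconverts acetoin and 2,3-butanediol, and BDH2 (YAL061W) encodes a related putative dehydrogenase. BDH2 had values of −1.82 and −1.63 with ebselen, against 1.63 and 1.67 with DMSO. It fell 10.4-fold (−3.38 ± 0.077, 95% interval −3.57 to −3.18, adjusted p = 1.27e-05), and it ranked 23 among the 5449 genes ordered from the lowest change. BDH1 had values of −0.22 and −0.20 with ebselen, against 0.20 and 0.27 with DMSO. Its fall was 1.36-fold (−0.45 ± 0.054, adjusted p = 0.00109). The groups did not overlap for either gene, but the fall of BDH2 was far the larger on the log2 scale. All 4 genes listed around acetolactate and diacetyl fell, with a median of −0.49, while 38.8% of all genes fell. Their median was −0.85 on hybridization-control scaling and −0.34 with the trend with coding length removed, beside −0.39 and 0.03 for all genes. The 4 genes included ARA1, which reduces diacetyl (−0.99 ± 0.058), and the branched-chain amino acid genes ILV6 (−0.57 ± 0.083) and ILV5 (−0.41 ± 0.050).

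**Figure D2:**
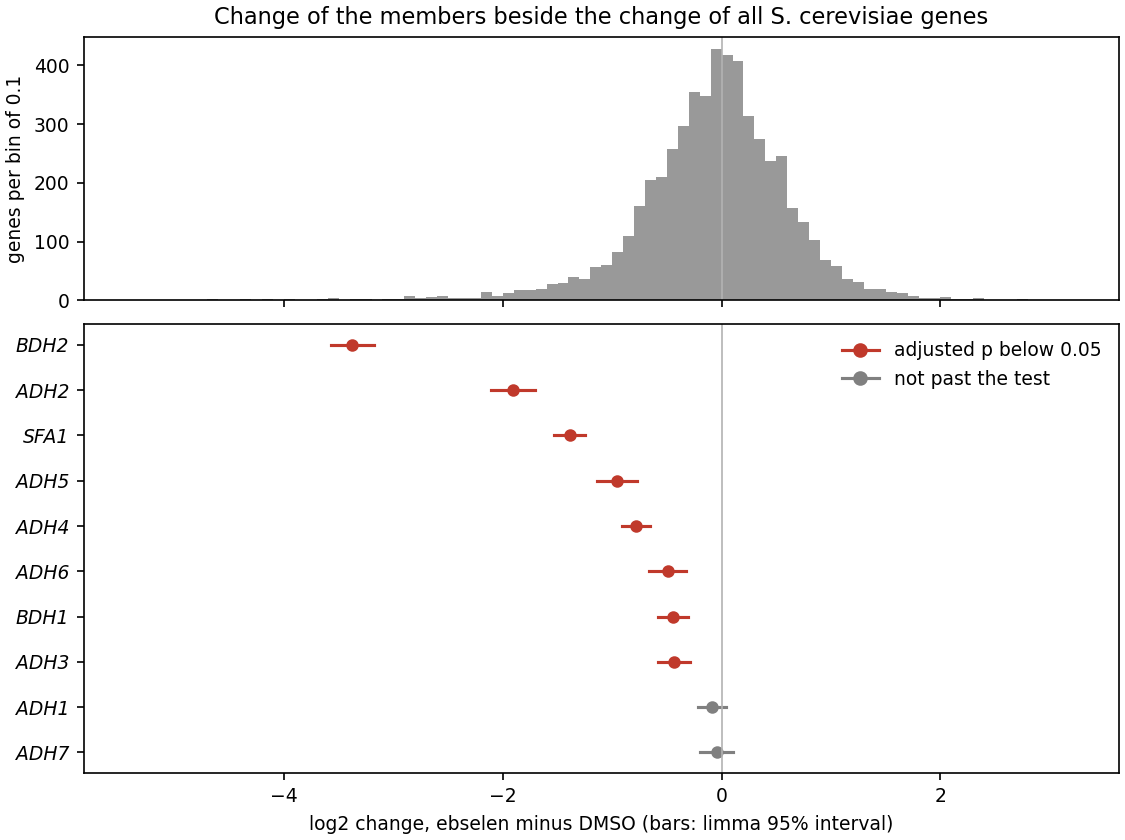
Log2 change, ebselen minus DMSO, of all 5449 genes (upper panel, genes per bin of 0.1) and of the 10 members with limma's 95% intervals (lower panel; red, adjusted p below 0.05). BDH2 at −3.38 lies in the thin left tail, while ADH1 at −0.09 and ADH7 at −0.05 lie at the centre of the distribution.

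Related members were set against each other on the same arrays. For each of 6 pairs the log2 value of one gene minus that of the other was taken per array, and its mean was compared between groups. The exact two-sided permutation test of 2 against 2 arrays cannot go below p = 0.333, which each of the 6 pairs reached (0.333 also after Benjamini-Hochberg adjustment), so these differences are given against the spread of the arrays. ADH1 minus ADH2 was 1.06 and 0.86 with ebselen, against −0.87 and −0.84 with DMSO, a difference of 1.81 with a pooled SD of 0.0997. ADH1 minus ADH5 differed by 0.86 (pooled SD 0.092), ADH1 minus ADH3 by 0.34 (0.038) and ADH2 minus ADH5 by −0.95 (0.051). ADH6 minus ADH7 was −0.33 and −0.15 with ebselen, against 0.20 and 0.21 with DMSO, a difference of −0.45 with a pooled SD of 0.091. BDH1 minus BDH2 differed most, by 2.93 (pooled SD 0.087). In each of the 6 pairs the groups stood apart, by several times the pooled SD.

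Ordered by change, the members were BDH2, ADH2, SFA1, ADH5, ADH4, ADH6, BDH1, ADH3, ADH1 and ADH7. BDH2 and ADH2 were separated by 1.47, ADH2 and SFA1 by 0.52, SFA1 and ADH5 by 0.43, and ADH3 and ADH1 by 0.34. Each of these steps had 95% intervals that did not overlap. ADH6 and BDH1 (gap 0.05, pooled SD 0.091) and BDH1 and ADH3 (gap 0.01, pooled SD 0.040) did not differ beyond the spread of the arrays. The same held for ADH1 and ADH7 (gap 0.05, pooled SD 0.065). The intervals of ADH5 and ADH4 overlapped at a gap of 0.18, and those of ADH4 and ADH6 at a gap of 0.28, although their per-array differences did not overlap between the groups.

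The gene on each side of every member was taken from the RefSeq gene table of assembly R64. Of 18 such neighbours outside the family 14 were measured, and 5 fell, 7 rose and 2 did not pass, with a median change of 0.04. Over all genes tested, 38.8% fell and 33.0% rose. GDH3 (YAL062W), an isoenzyme of glutamate dehydrogenase, is next to BDH2, which is next to BDH1, so that 3 adjacent genes fell, with GDH3 at −2.16 ± 0.052. ECM1 (YAL059W) on the other side of BDH1 rose by 0.18 ± 0.051, although its change was −0.17 with hybridization-control scaling. Beside SFA1, UGX2 fell (−2.10 ± 0.12) and NRP1 rose (0.60 ± 0.051). FET4, a low-affinity iron transporter next to ADH6, rose by 0.65 ± 0.054, and YMR317W on its other side rose by 0.37 ± 0.086. Beside ADH2, YME2 fell (−0.56 ± 0.051) and UBP15 changed by −0.11 ± 0.059 without passing. YMR084W, next to ADH3, fell (−0.66 ± 0.13). PAU3 fell next to ADH7 (−0.51 ± 0.12), while RDS1 on its other side changed by −0.17 ± 0.13 without passing. MHF1 beside ADH1 (0.37 ± 0.050), MNT2 beside ADH4 (0.33 ± 0.063) and MRPS9 beside ADH5 (0.27 ± 0.052) rose as deposited, although MNT2 and MRPS9 were below 0 with hybridization-control scaling.

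BDH2, the member with the largest fall, was also compared with all genes outside the family by Euclidean distance over its 4 values. The nearest were MOH1 (distance 0.061, change −3.41), OYE3, an NADPH oxidoreductase of the old yellow enzyme family (0.111, −3.27), and GPG1 (0.171, −3.36). With 4 arrays that fall into 2 groups, this distance says mainly that the changes are of like size.

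Genes around the family's reactions were described from lists of related genes. Their counts are to be read beside the shares of all genes, of which 38.8% fell and 33.0% rose as deposited. The list of pyruvate decarboxylases, aldehyde dehydrogenases and acetyl-CoA synthetases had members in both directions: 6 of 11 fell and 3 rose, with a median of −0.18. ALD3 (−2.88 ± 0.075), an aldehyde dehydrogenase of the cytosol, PDC6 (−1.82 ± 0.066), a minor pyruvate decarboxylase, and ALD4 (−1.59 ± 0.079), the main mitochondrial aldehyde dehydrogenase, fell most. PDC1, the main pyruvate decarboxylase, which acts just before ADH1, changed by 0.04 ± 0.050 without passing, and its change was below 0 on the S. pombe and hybridization-control scalings. The 3 that rose were PDC5 (0.46 ± 0.080), ALD6 (0.33 ± 0.052) and PDC2 (0.21 ± 0.052), with ALD6 and PDC2 below 0 on hybridization-control scaling, where 0 of the list rose and 7 fell. Over all 5449 genes, 645 rose and 3177 fell on that scaling. PDC1, PDC5, ALD6 and PDC2 were named after their values were seen.

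In the fusel alcohol list, which covers the degradation of amino acids to higher alcohols in which ADH enzymes take the last step, 6 of 11 genes fell and 3 rose, with a median of −0.22. ATF2, an alcohol acetyltransferase that turns alcohols into acetate esters, rose 3.56-fold (1.83 ± 0.053). GRE2, an aldehyde and ketone reductase, fell (−0.88 ± 0.070), and so did ARO80, the activator of the aromatic amino acid branch (−0.68 ± 0.074). The transaminases BAT2 (0.50 ± 0.054) and ARO9 (0.39 ± 0.053), named after their values were seen, also rose, and on hybridization-control scaling 1 of the list rose and 8 fell. Over all 5449 genes that scaling gave 645 rises and 3177 falls.

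Other genes of the medium-chain dehydrogenase/reductase superfamily fell for 9 of 10 measured members and rose for 0 (by limma, 0 also at an unadjusted p under 0.05), with a median of −0.63, beside −0.64 for the alcohol and butanediol dehydrogenases. SOR2, named after its value was seen, did not pass, and its probe set was marked as shared with other transcripts. The largest falls were those of ZTA1, a quinone reductase (−1.70 ± 0.061), ETR1, a mitochondrial enoyl reductase (−1.13 ± 0.054), and YLR460C (−1.07 ± 0.079). With the trend with coding length removed, 7 of the list fell and 1 rose, while over all 5449 genes 1857 fell and 2106 rose. All 9 NADH, glycerol-3-phosphate and malate dehydrogenase genes of the list fell, with a median of −0.67. Among them were NDE2, an external mitochondrial NADH dehydrogenase (−2.85 ± 0.051), GUT2, the mitochondrial glycerol-3-phosphate dehydrogenase (−1.53 ± 0.15), and MDH2, the cytosolic malate dehydrogenase (−1.18 ± 0.060). With the trend with coding length removed, 6 of the 9 fell.

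**Figure D3:**
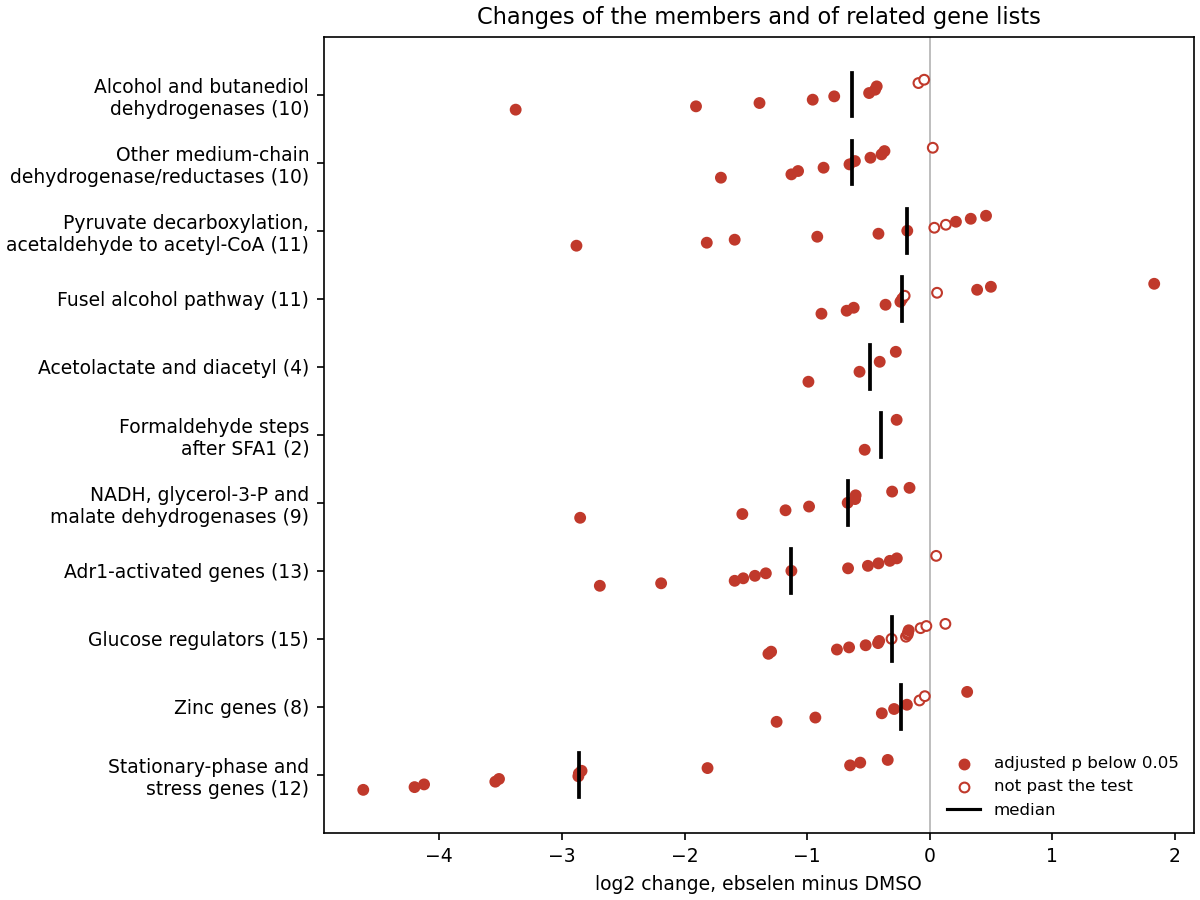
Log2 change, ebselen minus DMSO, of each gene in the family and in 10 lists of related genes (number measured in brackets); filled points passed the test and black bars are medians. The family's median of −0.64 stands near those of the other medium-chain enzymes (−0.63) and of the NADH, glycerol-3-phosphate and malate dehydrogenases (−0.67), with the stationary-phase and stress genes lowest at −2.86.

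ADH2 was set beside other genes known to be activated through Adr1, of which 12 of 13 fell and 0 rose (by limma, 0 also at an unadjusted p under 0.05), with a median of −1.13. The largest falls were those of POT1, the thiolase of fatty acid oxidation (−2.69 ± 0.054), CRC1, the mitochondrial carnitine carrier (−2.19 ± 0.10), and ALD4 (−1.59). ADH2, at −1.91, lay within the range of the list, which ran from −2.69 to 0.05. Of 15 regulators of glucose repression and derepression 9 fell and 0 rose (also 0 in limma without adjustment, at a p under 0.05), with a median of −0.31. The count that fell was 14 on hybridization-control scaling (median −0.67), 12 on S. pombe centring and 7 with quantile normalization. Over all 5449 genes the counts that fell were 3177, 2335 and 1982 in the same order, against 2113 as deposited. The regulators that fell as deposited included ADR1 itself (−0.76 ± 0.076), SIP4, an activator of gluconeogenic genes (−1.32 ± 0.087), and MIG2, a glucose repressor (−1.29 ± 0.074). On removal of the trend with coding length, 1 gene of each of these lists rose.

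Zinc genes were included because most of the family's enzymes bind zinc and the zinc-responsive activator Zap1 is known to act on several of the ADH genes, ADH4 among them. Of 8 zinc genes 5 fell and 1 rose, with a median of −0.24. On hybridization-control scaling 7 fell and 0 rose (median −0.59), and with the length trend removed 3 fell and 1 rose (median −0.07). Of all 5449 genes, 3177 fell on the former (median −0.39) and 1857 on the latter (median 0.03). Among the zinc genes, ZAP1 (−1.25 ± 0.066) and the zinc importers ZRT1 (−0.93 ± 0.051) and ZRT2 (−0.39 ± 0.069) fell most. MSC2, an endoplasmic reticulum zinc transporter named after its value was seen, rose by 0.30 ± 0.053 but was at −0.05 with hybridization-control scaling.

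Genes known to be high in stationary phase or under general stress were lower in the arrays labelled ebselen. All 12 of the list fell, with a median of −2.86, for example SPG4 (−4.62 ± 0.11), the small heat shock protein HSP26 (−4.20 ± 0.10) and the membrane protein HSP30 (−4.12 ± 0.097). The sum of their centred values was −17.2 to −15.4 with ebselen, against 15.6 to 15.7 with DMSO, and centred values do not show which of these genes were near 0 in level. Whether the difference in these listed genes had a part in the changes of the dehydrogenase genes was not tested.

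The scaling of the arrays moved the changes of all members. BDH2 ranged from −3.73 with hybridization-control scaling to −2.67 with quantile normalization. ADH2 ranged from −2.26 to −1.59 under the same settings. The members with smaller falls moved more in proportion. Between hybridization-control scaling and removal of the length trend, ADH6 ranged from −0.85 to −0.29, BDH1 from −0.80 to −0.25 and ADH3 from −0.79 to −0.23, each by over 1.5 times from its deposited change in both directions. The 8 members that fell passed under every setting run, while ADH1 and ADH7 were the members whose sign or call depended on the scaling.

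**Figure D4:**
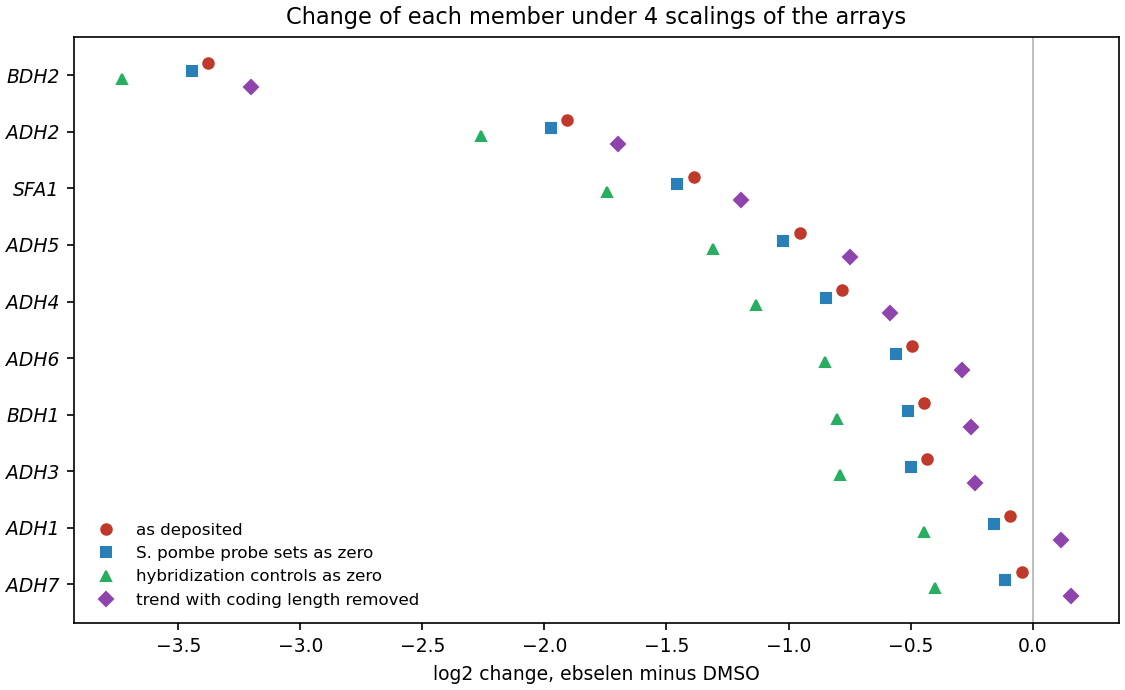
Log2 change, ebselen minus DMSO, of each member as deposited, with the S. pombe probe sets or the hybridization controls as zero, and with the trend with coding length removed. Hybridization-control scaling places all 10 members below 0, and removal of the length trend places ADH1 (0.11) and ADH7 (0.16) above 0.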

How the data were processed

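RNA was labelled with biotin and hybridized to Affymetrix Yeast Genome 2.0 arrays, per the labels' protocols. The authors normalized the arrays with RMA, per the submitters' processing notes. The deposited values are taken as log2 because RMA gives log2 values; no source used here names the log base. Each probe set had a median of 0 over the 4 arrays (tested on the values, largest deviation 5e-07), so absolute levels are unknown.

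Of 10928 probe sets, 7244 had 1 gene symbol, 1 had several and 3683 had none listed, 166 of them controls. Through gene IDs, 5498 probe sets were placed on 5449 genes of RefSeq assembly R64, and the probe sets of a gene were averaged (47 genes had more than 1). Another 1747 annotated probe sets were taken as S. pombe.

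Groups were compared with limma 3.58.1 in R 4.3.3 (lmFit and eBayes with 1 term for the group; two-sided; 2 residual and 3.13 prior degrees of freedom). The procedure was tested on simulated data. P values measure the spread between 2 arrays per group, whose number limits precision. Whether the replicates came from separate cultures is not stated beyond the word biological.

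The members, gene lists and tests were chosen with earlier results of these data known. All members were named, with the 3 largest called changes per list, the neighbouring genes and the 3 genes nearest to the member with the largest fall; others are marked. SOR1, of the superfamily list, was not matched. Of 92 list genes 3 stand in more than 1 list. The alternatives included a block for the replicate number, leaving out each array, other scalings, other sets of probe sets, other thresholds, robust eBayes and the methods' t-test. Figures were drawn with matplotlib 3.10.9.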

Additional observations from a re-analysis of the deposited data

How the results depend on the processing

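Under all 17 alternatives 0 members were higher, and 8 to 10 were lower. The 8 members that fell kept direction and call in each. The count was 9 on S. pombe centring and also in the methods' t-test (ADH1 added in each) and 10 on hybridization-control scaling with either set of controls (ADH1 and ADH7 added), where limma gave every gene the same SE. With the trend with coding length removed, ADH1 was at 0.11 and ADH7 at 0.16, neither past the test. The median change of the members, −0.64, was −0.67 to −0.62 when 1 array was left out. It was −0.58 with quantile normalization, −0.60 with arrays centred on the median gene, −0.70 on S. pombe centring, −0.99 on hybridization-control scaling (−0.97 on the 9 r2 controls alone, added after seeing the data) and −0.44 without the length trend; the cause of the differences was not tested. Over all genes 645 rose and 3177 fell with hybridization-control scaling, and 668 rose and 3090 fell on the r2 controls, against 1796 and 2113 as deposited. On S. pombe centring 1569 of all genes rose and 2335 fell, and in the methods' t-test 1233 rose and 1410 fell. With the replicate number as a block 8 members fell, and over all genes 1670 rose and 1971 fell; same-numbered arrays did not deviate together (correlation of deviations over genes −0.08), so the numbers were not taken as pairs. A filter on dim probes was not run because brightness is not kept in centred values.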

Other observations

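The array also carries S. pombe probe sets annotated to genes with the same letters as members of the family, adh1 and adh4, which belong to another species and were not counted as members. The S. pombe adh1 probe set had values of 0.49 and 0.26 in the arrays labelled ebselen, against −0.26 and −0.27 in the DMSO arrays, a change of 0.64. That is opposite in sign to ADH1 to ADH7 of S. cerevisiae as deposited and slightly above the 0.60 within which 99% of S. pombe probe sets stayed. The S. pombe adh4 probe set had 0.06 and −0.06 with ebselen, against −0.06 and 0.21 with DMSO, a change of −0.08, with overlapping groups. These values were looked up after the results for the members were known, and no test was run on them.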
